A study of Homo sapiens with 3 samples.

Results

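The structural RNAs made by RNA polymerase III were examined through 9 gene rows, RN7SL1, RN7SL2, RN7SK, RMRP, RPPH1, RNY1, RNY3, RNY4 and RNY5. They were taken by gene name from the 39320 rows on the assembled chromosomes, mitochondrial rows included, and each name had 1 row. The values came from 3 RNA-seq libraries, replicates 1 to 3, labelled wild type (WT) HepG2, a long-established line of human liver cancer cells, and the labels give neither a treatment nor another group. The RNA is labelled polyA RNA, and the labels do not say whether the libraries came from separate cultures, so the spread between them may be technical. Of 9 hepatocyte markers checked against the label, ALB, APOA1, APOB, SERPINA1, FGB and APOH were listed at 0 in all 3 libraries, and AFP, TF and TTR reached at most 0.203 TPM. ACTB and GAPDH had 5054 ± 192 and 7264 ± 82.8 TPM (SD, n = 3). The libraries are therefore named here only by their label.

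RNA polymerase III makes short, abundant RNAs that are not translated. RN7SL1 and RN7SL2 encode the 7SL RNA, the scaffold of the signal recognition particle (SRP), which brings ribosomes that make secreted and membrane proteins to the endoplasmic reticulum. RN7SK encodes the 7SK RNA, which holds the elongation kinase P-TEFb inactive, RPPH1 the RNA of RNase P, which cuts the 5′ leader from tRNA precursors, and RMRP the related RNA of RNase MRP, which acts in ribosomal RNA processing. The 4 Y RNAs bind the Ro60 and La proteins. Such transcripts generally end in a run of U and receive no long poly(A) tail. In bulk RNA, fewer cells that make an RNA and less of it per cell cannot be told apart.

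The rows of RN7SL1, on the plus strand of chromosome 14, and RN7SL2, on its minus strand, had the same length of 299 bp in GRCh38. Both encode nearly the same RNA, and so does RN7SL3, another copy on this chromosome that is no member. How reads that match more than 1 copy were divided among these rows is not given in the sources used here, so the values of RN7SL1, RN7SL2 and RN7SL3 are uncertain to that extent.

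The 4 Y RNA rows lie within 45761 bp of chromosome 7, RNY1 on the minus strand and RNY3, RNY4 and RNY5 on the plus strand. The sequences of RNY1 (chr7:148987136-148987248), RNY4 (chr7:148963315-148963410) and RNY5 (chr7:148941488-148941571) are shown because these rows shared both a value of 0 and short stretches of sequence. RNY3 was also listed at 0, and its sequence is not reported here, so the rows shown are not set apart from it. Capitals mark TGGTCCGA near the 5′ end and TTGACT near the 3′ end of RNY1, RNY4 and RNY5, and the closing run of T. Both are the longest runs common to the 3 rows shown within 25 bases of each end.
RNY1: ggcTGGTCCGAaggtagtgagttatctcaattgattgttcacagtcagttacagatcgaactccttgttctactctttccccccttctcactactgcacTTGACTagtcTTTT
RNY4: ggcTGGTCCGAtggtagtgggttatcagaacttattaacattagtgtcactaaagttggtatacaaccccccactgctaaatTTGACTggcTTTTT
RNY5: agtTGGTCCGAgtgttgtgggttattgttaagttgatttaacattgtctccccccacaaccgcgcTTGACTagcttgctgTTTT
On the transcribed strand, TGGTCCGA was found in 4 of the 862 rows of 84 to 113 bp, or 0.464%, and TTGACT in 2.44% of them. The last 4 bases were TTTT in 12 of these rows, or 1.39%. Each of these counts includes the 3 rows shown.

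The 5′ part of RN7SK is shown because it holds the binding site of the P-TEFb inhibitor HEXIM1, whose mRNA is described with the 7SK RNA. RN7SK lies at chr6:52995620-52995951 on the plus strand and is 332 bp long. Capitals mark GATC in bases 1 to 100.
RN7SK: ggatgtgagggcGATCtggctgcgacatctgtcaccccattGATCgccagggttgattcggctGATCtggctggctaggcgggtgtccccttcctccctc
GATC occurred 3 times here. Of the 124 rows of 250 to 400 bp, 2.42% had at least as many in their first 100 bases on the transcribed strand. RN7SK itself is among the rows counted. GATC reads the same on both strands.

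The 9 rows together had 1577, 2887 and 4156 TPM in replicates 1, 2 and 3, where TPM is a level per length, with an equal sum in all libraries. The mean was 2874 ± 1289.5 TPM (SD, n = 3), and it rested almost wholly on 7SL RNA, since RN7SL1 and RN7SL2 held 99.8% of it in every library. A level of at least 1 TPM in all 3 libraries was reached by RN7SL1, RN7SL2 and RN7SK, or 3 of the 9 members, against 33.8% of all rows and 12.6% of the 3228 rows of 400 bp or less. RMRP was below 1 TPM in replicate 1 alone. RPPH1 was above 0 in replicate 2 alone, and the 4 Y RNAs were listed at 0 throughout. In order of mean TPM, RN7SL2 stood first, followed by RN7SL1, RN7SK, RMRP and RPPH1.

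**Figure D1:**
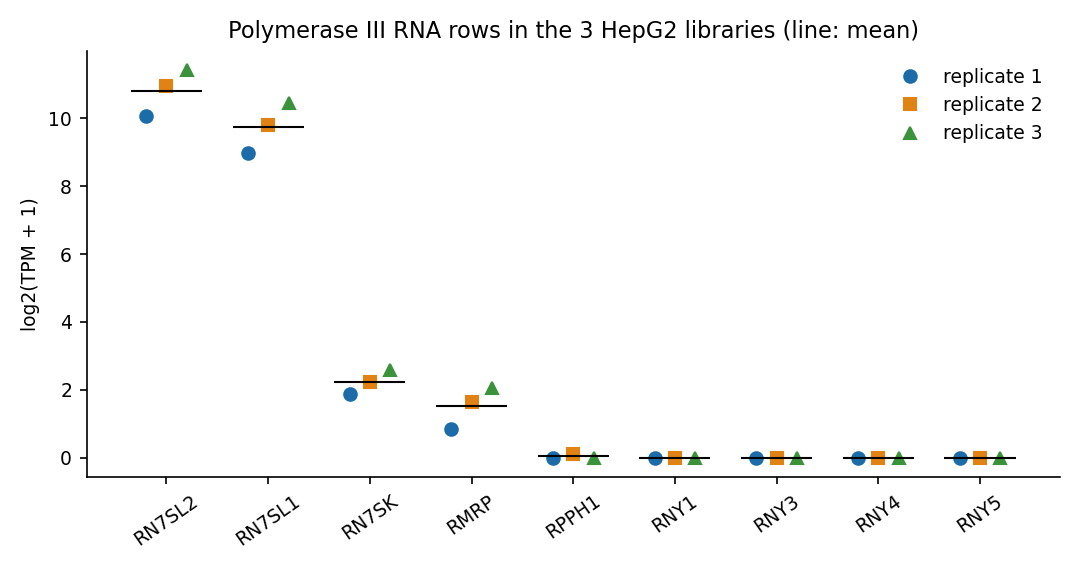
log2(TPM + 1) of the 9 rows, on the vertical axis, in each of the 3 libraries (points), with the mean of the 3 log2 values as a line. RN7SL2 and RN7SL1 stand far above the others, RN7SK and RMRP lie between 0.801 and 4.94 TPM, and RPPH1 and the Y RNAs lie at or near 0.

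RN7SL2 had 1068, 1979 and 2750.1 TPM in replicates 1, 2 and 3. RN7SL1 had 506, 903 and 1398 TPM in the same libraries. Both rows were lowest in replicate 1 and highest in replicate 3, with highest-to-lowest ratios of 2.57 for RN7SL2 and 2.76 for RN7SL1. Their means were 1932 ± 842 and 936 ± 447 TPM (SD, n = 3). By mean TPM, RN7SL2 ranked 49th and RN7SL1 127th of all rows, and 4th and 10th among the rows of 400 bp or less. The pair made up 0.158%, 0.289% and 0.415% of all TPM in replicates 1, 2 and 3.

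Between libraries, the ranges of RN7SL1 and RN7SL2 overlapped. Within each library, RN7SL1 was the lower of the pair, at 0.473, 0.456 and 0.508 times the TPM of RN7SL2 in replicates 1, 2 and 3. The log2 ratio of TPM + 1 was -1.06 ± 0.08 (SD, n = 3) and had the same sign in 3 of 3 libraries. With signs flipped in all possible ways over the 3 libraries, the exact two-sided permutation p was 0.25, also after Benjamini-Hochberg adjustment over 2 pairs, and this is the smallest p that the test can give with 3 libraries. The 2 rows kept nearly the same ratio while their levels changed by more than 2.5 times. Both encode nearly the same RNA, and how reads that match both were divided is not given. The part of that division in the ratio was not tested.

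RN7SL3, on the minus strand, had a different order over the libraries. Its 74.4 TPM in replicate 1 stood against 12.0 and 23.2 TPM in replicates 2 and 3, so that it was highest where the other copies were lowest. Its share of the 3 copies was 4.51%, 0.414% and 0.557% in replicates 1, 2 and 3. LOC107987206, a row of 1703 bp on the same strand that contains RN7SL1 (overlap of 299 bp), had 10.1, 0.969 and 0.839 TPM, and was likewise highest in replicate 1. LOC105378179, which contains RN7SL2 on the same strand, stayed between 0.401 and 0.487 TPM. RPS29, a ribosomal protein gene whose row spans RN7SL1 on the opposite strand, had 457, 711 and 781 TPM. By TPM this is the same order of libraries as in RN7SL1. By coverage, which is not scaled for depth, the order differed, since RPS29 had 101, 152 and 150 in replicates 1, 2 and 3. By FPKM, which is scaled for the library, RPS29 had 216, 340 and 374, the same order as by TPM. In GENCODE v44, the transcripts of RPS29 that cross RN7SL1 do so with introns. RN7SL2 lies in an exon of the long noncoding RNA gene ENSG00000282885 of that annotation. The part of these overlapping rows in the values of RN7SL1 and RN7SL2 was not tested.

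**Figure D2:**
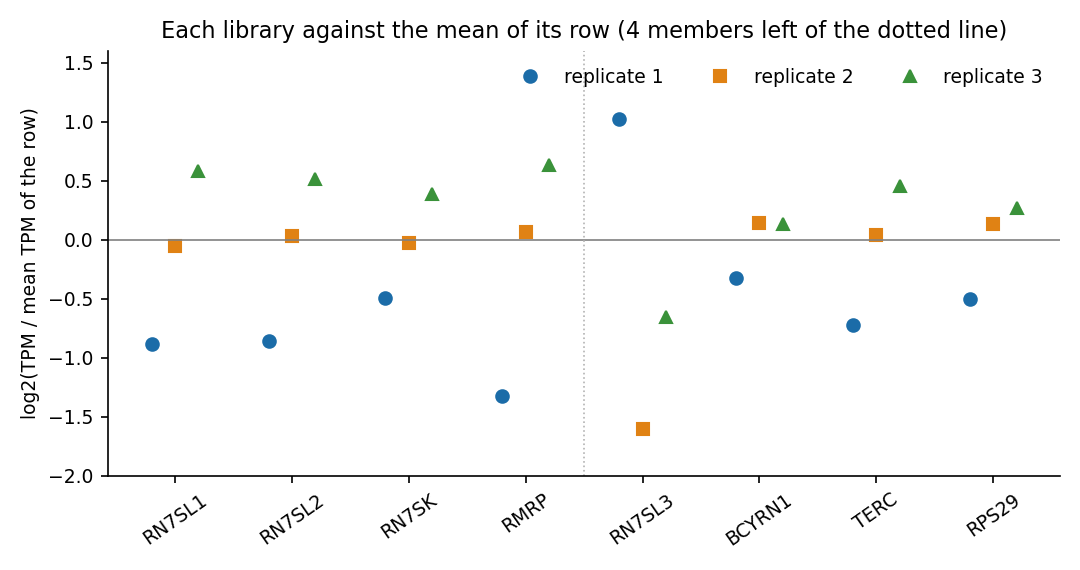
log2 of the TPM in each library over the mean TPM of the row, for the 4 members above 0 in all libraries (left of the dotted line) and for 4 other rows. In RN7SL1, RN7SL2, RN7SK and RMRP replicate 1 is lowest and replicate 3 highest, while RN7SL3 is highest in replicate 1.

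The 6 SRP proteins and the 2 subunits of the SRP receptor, SRPRA and SRPRB, were measured through 8 mRNAs, and all 8 had at least 10 TPM in every library. That level was reached by 20.7% of all rows and by 59.2% of the rows whose mean was 1 TPM or more. SRP14, which with SRP9 forms the Alu-domain subunit on 7SL RNA, was highest at 367 ± 30.0 TPM (SD, n = 3). SRP9 had 193 ± 7.01 TPM. SRP54, the subunit that recognises signal sequences, was lowest at 46.8 ± 1.83 TPM. SRP19, SRP68 and SRP72, which also bind the RNA, had 59.1 ± 1.88, 101 ± 0.684 and 72.8 ± 4.01 TPM. The largest range of log2(TPM + 1) over the libraries among these 8 mRNAs was 0.23, against 1.47 for RN7SL1 and 1.36 for RN7SL2. The RNA is labelled polyA RNA, and 7SL RNA generally has no long poly(A) tail. These ranges are therefore no measure of how the amounts of these RNAs varied in the cells.

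RN7SK had 2.68, 3.70 and 4.94 TPM in replicates 1, 2 and 3, a mean of 3.77 ± 1.13 TPM (SD, n = 3). This was above 19.6% of the rows with a mean of at least 1 TPM. Its highest library exceeded its lowest by 1.84 times, and its range of log2(TPM + 1) was 0.69. Coverage, the mean read depth over the row, was 16.8, 22.7 and 27.1. Coverage multiplied by length gave 5588, 7533 and 9007 aligned bases, as many as 37.3, 50.2 and 60.0 reads of 150 bp would hold. The nearest row to RN7SK, GSTA4 on the opposite strand, was 287 bp away and had 3.97, 3.72 and 4.40 TPM.

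Of the 7 mRNAs of the 7SK particle and P-TEFb, 5 had at least 10 TPM in all libraries, against 59.2% of the rows whose mean was 1 TPM or more. MEPCE, which caps the 5′ end of 7SK RNA, was highest at 80.2 ± 4.84 TPM (SD, n = 3), and LARP7, which binds its 3′ end, had 31.8 ± 2.02 TPM. HEXIM1 had 60.1 ± 1.21 TPM and its paralog HEXIM2 had 8.82 ± 0.590 TPM. CDK9, the kinase of P-TEFb, had 73.5 ± 4.10 TPM. The cyclins CCNT1 and CCNT2 had 22.2 ± 1.84 and 8.35 ± 0.513 TPM. All 7 mRNAs stood above RN7SK in mean TPM. The RNA is labelled polyA RNA, and 7SK RNA generally has no long poly(A) tail. This order is therefore no measure of how the amounts of these RNAs compare in the cells.

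RMRP (chr9:35657751-35658018, minus strand, 268 bp) had 0.801, 2.10 and 3.12 TPM in replicates 1, 2 and 3. Its mean was 2.01 ± 1.16 TPM (SD, n = 3), above 10.2% of the rows with a mean of at least 1 TPM. Without replicate 3 it was above 5.34% of them. The highest-to-lowest ratio of 3.89 was the largest among the 4 members above 0 in every library. The aligned bases numbered 1346, 3463 and 4591, as in 8.97, 23.1 and 30.6 reads of 150 bp, so replicate 1 rested on the least sequence. In each library RN7SK was higher than RMRP, by 3.35, 1.76 and 1.58 times, although their ranges over the libraries overlapped. CCDC107, which begins 271 bp away on the opposite strand, stayed between 4.81 and 5.06 TPM.

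RPPH1 (chr14:20343071-20343411, minus strand, 341 bp) was listed at 0 in replicates 1 and 3 and had 0.0713 TPM in replicate 2. The latter came from a coverage of 0.438, or about as many bases as 1 read holds (0.995 reads of 150 bp). These bases were not a whole number (149.31), so they need not be those of 1 read. RMRP was higher than RPPH1 in 3 of 3 libraries. The log2 ratio of TPM + 1 was 1.48 ± 0.60 (SD, n = 3). Its sign was fixed by the zeros of RPPH1, so no conclusion is drawn from its test. The ratio was the other pair in the adjustment for RN7SL1 and RN7SL2. Its size depended on the pseudocount, since it was 3.96 with 0.1 TPM and 3.35 with coverage in place of TPM. The row of PARP2, a DNA repair gene on the opposite strand, covers all 341 bp of RPPH1 and had 46.3, 45.7 and 44.6 TPM. In GENCODE v44, PARP2 does not reach RPPH1, which lies in an exon of the long noncoding RNA gene ENSG00000259001 on its own strand. The strand setting of the counting was not given in the sources used here, so reads of these opposite rows cannot be told apart.

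RNase P and RNase MRP share most of their proteins. Of 11 mRNAs for them, 10 had at least 10 TPM in all libraries, against 59.2% of the rows whose mean was 1 TPM or more. POP7 was highest at 120.0 ± 4.90 TPM (SD, n = 3), and RPP25, its partner in a dimer that binds both RNAs, had 56.7 ± 3.73 TPM. POP1, the largest shared subunit, had 26.2 ± 1.00 TPM. RPP14 was lowest at 10.1 ± 0.177 TPM and had 9.92 TPM in replicate 1. RPP21, a subunit of RNase P alone, had 63.8 ± 3.82 TPM. The RNase P RNA was at or near 0. In RNA labelled polyA, this level is not comparable with that of an mRNA.

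RNY1, RNY3, RNY4 and RNY5 were listed at 0 for TPM, FPKM and coverage in all 3 libraries. Among the 862 rows of the same lengths, 52.6% were listed at 0 in all libraries. Most of these rows (700) carry microRNA names, and of the 162 others 27.2% were at 0. No level or ratio between Y RNAs could be given, so the planned comparisons of RNY1 with RNY3 and of RNY4 with RNY5 were not made. The mRNAs of their binding proteins were present, with 28.6 ± 3.71 TPM for RO60, 179 ± 2.88 TPM for SSB, which encodes La, and 107 ± 14.3 TPM for PUF60 (SD, n = 3). GHET1, the nearest row to RNY1 at 278 bp, had 0.340 to 0.379 TPM.

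**Figure D3:**
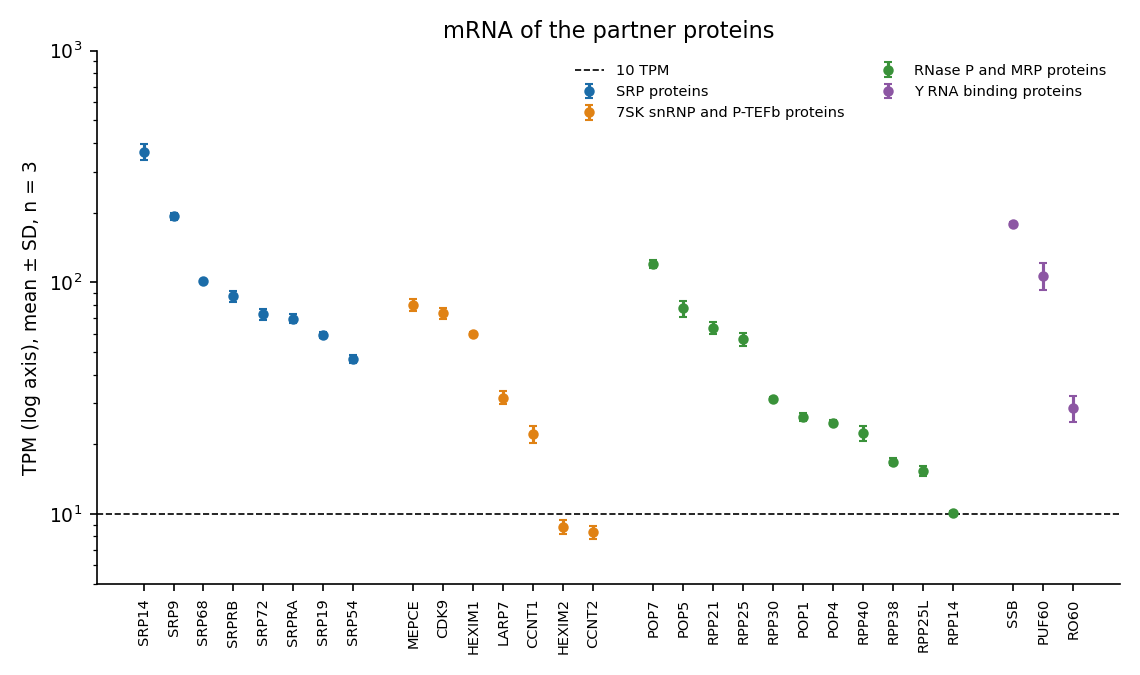
TPM (log axis, mean ± SD over 3 libraries) of 29 mRNAs for proteins of the RNA particles, the SRP receptor and P-TEFb. Of these, 26 had at least 10 TPM in every library (dashed line), and HEXIM2, CCNT2 and, in replicate 1, RPP14 did not.

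Over the 4 lists, 26 of 29 partner mRNAs had at least 10 TPM in all libraries, against 59.2% of the rows whose mean was 1 TPM or more, and 0 of 29 had a range of log2(TPM + 1) above 1, the largest being 0.36 in PUF60. Among the members, RN7SL1, RN7SL2 and RMRP had a range above 1. In RNA labelled polyA, the ranges of the members and of mRNAs are not comparable as amounts in the cells. Where the mean was 10 TPM or more, 0.273% of 8419 rows had such a range, and of those among them of 400 bp or less, 7.05%. RN7SL1 and RN7SL2 were 2 of the 2 members at this level. Where the mean was 1 TPM or more, 1.26% of 13753 rows had such a range, and of the short ones among them 16.2%, against 3 of 4 members. At a mean of 500 TPM or more, a limit chosen after the values were seen, RN7SL1 and RN7SL2 were the 2 rows of 231 with a range above 1. The count of 3 members fell to 0 without replicate 1 or without replicate 3, the libraries at the ends of the range.

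**Figure D4:**
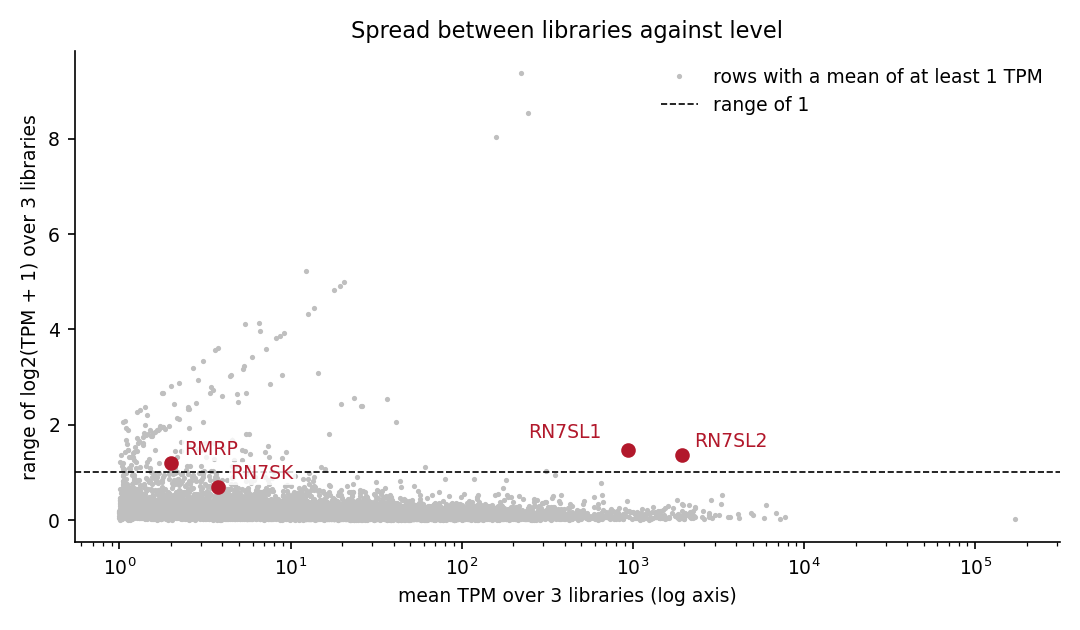
Range of log2(TPM + 1) over the 3 libraries against the mean TPM (log axis) for the rows with a mean of at least 1 TPM (grey) and the 4 members among them (red). RN7SL1 and RN7SL2 lie above the dashed line at 1 with ranges of 1.47 and 1.36, while the median range of rows with a mean of at least 10 TPM is 0.13.

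All 4 members with a mean of at least 1 TPM were lowest in replicate 1 and highest in replicate 3. This order was found in 10% of the 13753 rows at that level and in 18.4% of the 499 among them of 400 bp or less. The 4 members are not independent observations, since RN7SL1 and RN7SL2 encode nearly the same RNA. Relative depth had the opposite order, with a 90th percentile of coverage per FPKM of 13.3, 12.8 and 11.5 in replicates 1, 2 and 3. Its part in the order of the members was not tested. Median-of-ratios scaling gave highest-to-lowest ratios of 2.93 for RN7SL1, 2.73 for RN7SL2, 1.95 for RN7SK and 4.12 for RMRP.

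Coverage was set against TPM because the rows are short, and a short row can receive a large FPKM from little sequence. In RN7SL2, coverage was 6697, 12146 and 15115.5 in replicates 1, 2 and 3, and in RN7SL1 it was 3170, 5543 and 7684. In RMRP it was 5.02, 12.9 and 17.1. The order of the libraries was the same as in TPM for all 4 members, with highest-to-lowest ratios of coverage of 2.26, 2.42, 1.61 and 3.41 for RN7SL2, RN7SL1, RN7SK and RMRP. Coverage per FPKM was within 0.1% of the 90th percentile of the library in each of the members above 0. Among the rows of 400 bp or less and above 0, 46.2%, 46.0% and 46.9% were this close, and 49.7%, 51.5% and 50.0% had less than 0.9 times that ratio. Coverage in the members was therefore close to FPKM times a value set by the library. TPM and coverage ordered the libraries alike in the members, but this is no separate check of the TPM of these members. Their place among all rows was higher by coverage, with RN7SK above 32.1% and RMRP above 20.2% of the rows with a mean of at least 1 TPM.

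**Figure D5:**
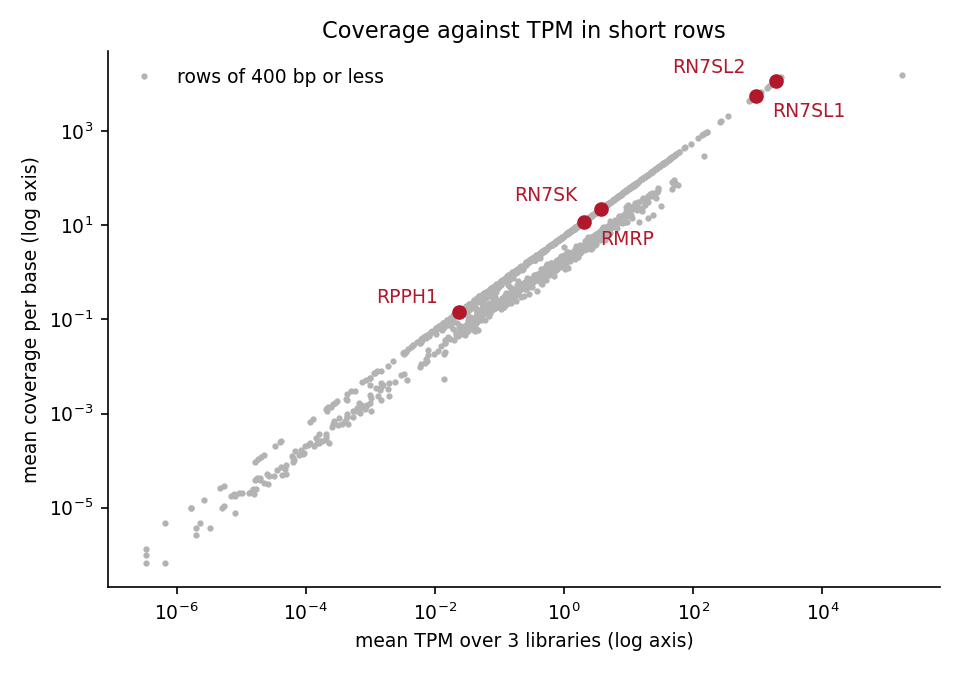
Mean coverage per base against mean TPM (both log axes) for rows of 400 bp or less (grey) and the 5 members above 0 (red). The 5 members lie on the upper edge of the cloud, where coverage per TPM is highest.

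For the 4 members above 0 in every library, the row nearest in log2(TPM + 1) over the 3 libraries was found by Euclidean distance. It was RPL37A for RN7SL2 at a distance of 0.66, and NDUFS6 for RN7SL1 at 0.77. It was GAGE12H for RN7SK at 0.12 and MIR6762 for RMRP at 0.09. RPL37A had 1493, 1961 and 2003 TPM, so that even the nearest row to RN7SL2 had a narrower range than RN7SL2 itself.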

How the data were processed

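RNA-seq of 3 libraries labelled WT HepG2, replicates 1 to 3, was used. Per the submitters' processing notes, reads were checked with FastQC 0.11.8, trimmed with Trim Galore 0.6.2, aligned to GRCh38 with STAR 2.6.1a and quantified with StringTie. The paper gives paired reads of 150 bp. The annotation and the strand setting are not given in the sources used here. The authors deposited 1 table per library with coverage (mean read depth of a row, not scaled for depth), FPKM (scaled for length and library) and TPM. The deposited TPM values are FPKM rescaled to the same total in each library. Counts are not among the columns, so that depth is unknown and counting error could not be given. The precision of each value is its SD over 3 libraries.

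Rows were joined on identifier, name, strand and coordinates (43389 rows), and the 39320 on the assembled chromosomes were kept. Members were matched by name. Relative depth was taken as the 90th percentile of coverage per FPKM. Aligned bases are coverage times length. Pairs were compared by the log2 ratio of TPM + 1 in each library and tested by an exact permutation of signs (two-sided). The range of log2(TPM + 1) over the libraries was tested on simulated data. Sequences were read from GRCh38, and those of some rows are not reported here. GENCODE v44 lists 8 members by name, 4 of them with the same start and end, and coordinates are those of the deposited rows. The reference table of promoters held 0 members.

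The genes named were the 9 members, genes of fixed lists that bind a member or stood lowest or highest in a list, rows overlapping or beside a member, and the nearest row of each member. The members and lists were chosen with earlier results of these data known. Alternatives were leaving out each replicate, scaling without mitochondrially encoded genes, median-of-ratios scaling, rows of all references, other minimum levels, a pseudocount of 0.1 TPM and coverage in place of TPM. Python 3.11.15, numpy 2.4.6, pandas 2.3.3, pyfaidx 0.9.0.4 and matplotlib 3.10.9 were used.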

Additional observations from a re-analysis of the deposited data

How the results depend on the processing

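The sum of the 9 members was between 2232 and 3522 TPM with 1 replicate left out. With 3 libraries, leaving 1 out cannot move a mean by more than its SD, so no stability is concluded. The sum was 3599.7 TPM without mitochondrially encoded genes and 2896 TPM with median-of-ratios scaling. The count of members with at least 1 TPM in all libraries was 3 or 4 with 1 replicate left out, 4 with a minimum of 0.1 TPM or without mitochondrially encoded genes, and 2 with a minimum of 10 TPM. The count of members with a range above 1 was between 0 and 3 with 1 replicate left out, and 3 under the other alternatives. Partner mRNAs with at least 10 TPM numbered 26 to 27 with 1 replicate left out and 28 without mitochondrially encoded genes. The log2 ratio of RN7SL1 to RN7SL2 lay between -1.10 and -1.03, and that of RMRP to RPPH1 between 1.19 and 1.79, with 1 replicate left out. Without a filter on low values, the percentiles of RN7SK, RMRP and RPPH1 were 71.9, 68.6 and 45.8. No member has a row on the unplaced or alternate references, so including these changed nothing. No paired analysis was possible because there is 1 condition. Limits are that the exact permutation of signs over 3 libraries gives no p below 0.25, that depth is unknown, and that a row listed at 0 gives no upper limit to its level.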

Other observations

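Of 12 other polymerase III RNAs, BCYRN1 and RN7SL3 had at least 1 TPM in all 3 libraries, and 9 were below 1 TPM in all. A level of at least 1 TPM in all libraries was reached by 12.6% of the rows of 400 bp or less. BCYRN1, the BC200 RNA, a neuronal transcript related to the Alu part of 7SL RNA, had 27.5, 38.1 and 37.9 TPM in replicates 1, 2 and 3.

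The vault RNAs VTRNA1-1, VTRNA1-2, VTRNA1-3 and VTRNA2-1 summed to 0.213, 0.402 and 0.458 TPM. RNU6-8, a U6 RNA of the spliceosome, had 0.757, 0.371 and 2.45 TPM. Further rows were chosen after their values were seen. The 17 rows of 5S ribosomal RNA were listed at 0 in all libraries, as were 27 of 28 SNAR rows. The 390 nuclear tRNA rows summed to 24.0, 23.2 and 26.6 TPM, with 261 at 0 in all libraries and 1 with at least 1 TPM in all. Among the 862 rows of 84 to 113 bp, 52.6% were listed at 0 in all libraries, as were 27.2% of the 162 without microRNA names. The 5S, SNAR and tRNA rows were not matched to these by length. Among 19 rows of polymerase II snRNAs and TERC, 18 were below 1 TPM in every library. TERC, the telomerase RNA, had 0.584, 0.990 and 1.32 TPM, with its lowest value in replicate 1 and its highest in replicate 3.

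The mRNAs of polymerase III itself were present. Of 18 subunits, 17 had at least 10 TPM in all libraries, a level reached by 59.2% of the rows whose mean was 1 TPM or more, with POLR3K highest at 178 ± 10.9 TPM (SD, n = 3). POLR3G, which is used in place of POLR3GL, was lowest at 4.95 ± 0.466 TPM, while POLR3GL had 23.9 ± 1.98 TPM. Of 19 initiation factors and regulators, 17 had at least 10 TPM, and GTF3C5 of TFIIIC was highest at 119 ± 2.68 TPM. POU2F1, which acts on promoters of the 7SK and snRNA type, was lowest at 7.41 ± 0.887 TPM, and SNAPC1 of the SNAPc complex had 8.17 ± 0.385 TPM. MAF1, the repressor of polymerase III, had 58.4 ± 1.73 TPM. None of these 37 mRNAs had a range of log2(TPM + 1) above 1, the largest being 0.30 among the subunits and 0.29 among the factors. Such a range was rare in general, at 1.26% of the rows with a mean of at least 1 TPM.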
